A study of Drosophila melanogaster with 4 samples.

Results

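The genes that build the basement membrane and its integrin receptors were examined in wing imaginal discs (sacs of larval epithelium that become the wing and much of the thorax of the adult) of Drosophila melanogaster, in discs with Polycomb RNAi and in wild-type discs. A set of 10 was taken by name from the deposited expression table, namely the collagen IV genes Cg25C (now Col4a1) and vkg, the laminin genes LanA, LanB1 and LanB2, the perlecan gene trol, the nidogen gene Ndg, and the integrin genes mys, mew and if. All 10 were found among the 15627 named genes of the table. Both groups were discs dissected in the third larval instar from cultures kept at 25 °C, and both carried the driver insertion P{Act5C-GAL4}25FO1 in a y1 w* background. The driver expresses the yeast activator GAL4 from an actin promoter, so it is not limited to the disc epithelium. In the Polycomb RNAi group it was joined to UAS-dsRNA Polycomb, which encodes double-stranded RNA that targets the Polycomb gene. In the wild-type group, which is the driver line itself, the insertion stood over the balancer chromosome CyO marked with y+, and the RNAi genotype on the labels names no balancer. Each genotype had 1 RNA library, made from total RNA without strand information. The series also holds an H4K20me1 ChIP library and its input from wild-type discs, which were not analysed here.

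The basement membrane is the sheet of extracellular matrix under an epithelium. Laminin trimers, each of an alpha, a beta and a gamma chain, assemble on the cell surface, and a network of collagen IV trimers joins them, with perlecan and nidogen as linkers. In the fly larva, the fat body is the main source of the collagen IV that is laid onto the discs, and haemocytes also produce basement membrane proteins. Integrins are receptors of an alpha and a beta subunit that tie this matrix to the actin cytoskeleton. In the wing disc, the integrin PS1 (subunits from mew and mys) marks the dorsal wing surface and PS2 (subunits from if and mys) the ventral one, and both are needed for the surfaces to adhere.

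Expression is given as FPKM, fragments counted per kilobase of transcript and normalized by the authors to the mapped fragments of each library, as deposited. Neither genotype has a replicate library, so no spread and no p-value can be given, and each difference is one between 2 libraries. Differences are log2((Polycomb RNAi FPKM + 1)/(wild-type FPKM + 1)), a scale on which genes with low values appear closer than they are. A gene was counted as higher or lower when it reached 1 FPKM in either library and lay at least 2-fold apart on this scale. The table gives no counts, so the sequencing depth is unknown and no counting error can be attached to a value. The median difference over the 8800 genes that reached 1 FPKM was -0.0032, with quartiles of -0.14 and 0.14. The Hox genes Ubx (60.8 FPKM in Polycomb RNAi and 2.23 FPKM in wild type) and Abd-B (36.7 and 0.194 FPKM), classical targets of Polycomb repression, stood far apart. Pc itself stood at 13.0 FPKM in Polycomb RNAi and 14.6 FPKM in wild type, a value that cannot separate the gene's own reads from those of the transgene.

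The 9 basement membrane and integrin genes that reached 1 FPKM lay within 2-fold between the Polycomb RNAi and wild-type libraries, and if had the largest difference. Of the 10 members, 9 reached 1 FPKM, and all 9 did so in both libraries. None of the 9 was at least 2-fold higher, where 4.41% of all tested genes were, and none was at least 2-fold lower, where 3.20% were. Counts of 0 among 9 are near these background shares and are no result about the set. Of the 9, 5 lay outside the quartiles of all tested genes (vkg, Cg25C, LanA, trol and if). The median difference of the 9 was 0.10, with 5 members above 0 and 4 below it. Rescaled so that the libraries had equal sums, 4 were above 0 and 5 below, and the median of all tested genes was -0.10. With median centring, 5 were above 0 and 4 below. Their summed level, with Ndg included, was 475.2 FPKM in Polycomb RNAi and 456.4 FPKM in wild type. At a 1.5-fold threshold, none of the 9 was higher, against 8.17% of all tested genes, and 1 was lower, against 6.47%. That member was if.

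**Figure D1:**
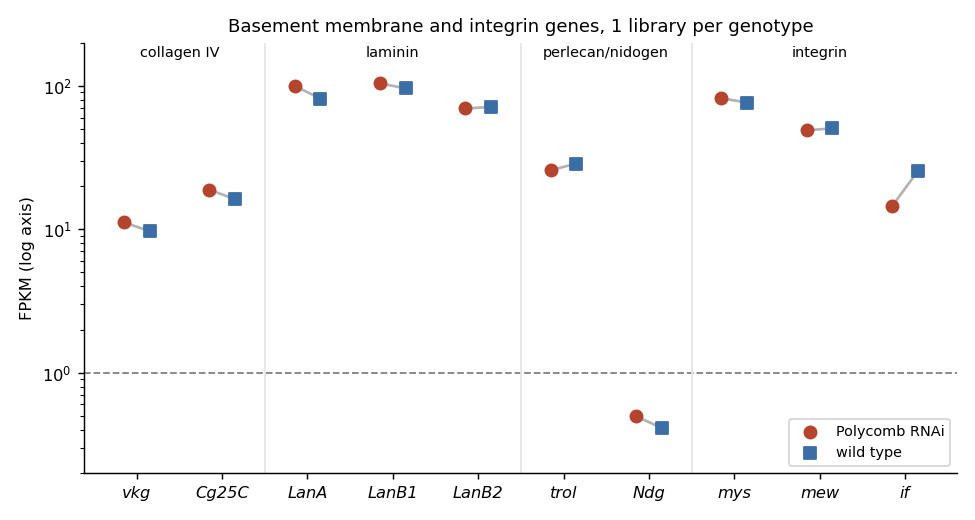
Levels of the 10 genes in FPKM on a log axis, with the Polycomb RNAi library as circles on the left and the wild-type library as squares on the right of each pair; each point is 1 library and the dashed line marks 1 FPKM. Ndg lies below the line in both libraries, and if has the widest gap of the 10 pairs, at 14.5 FPKM in Polycomb RNAi and 25.4 FPKM in wild type.

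Both collagen IV genes stood slightly above wild type, by less than 1.5-fold. Cg25C, which encodes the alpha 1 chain, had 18.9 FPKM in the Polycomb RNAi library and 16.2 FPKM in the wild-type library, a ratio of 1.17. For vkg, which encodes the alpha 2 chain, the levels were 11.2 FPKM in Polycomb RNAi and 9.70 FPKM in wild type, a ratio of 1.15. The log2 differences were 0.21 for Cg25C and 0.19 for vkg. Among all tested genes, 18.8% lay as far above 0 as Cg25C or farther, and 20.4% as far as vkg. The genes are neighbours on chromosome arm 2L in the gene table of the Release 6 assembly, and they are known to be transcribed away from a shared promoter region. Cg25C stood at 1.69 times the level of vkg in Polycomb RNAi and at 1.67 times in wild type. The ratio of their RNA levels was thus nearly equal in the libraries. A further row of the expression table is named veg, which RefSeq lists as another name of vkg. It had 10.7 FPKM in Polycomb RNAi and 9.41 FPKM in wild type, and the division of reads between the rows vkg and veg is not stated. The ratio of Cg25C to vkg rests on the row vkg alone. Were both rows parts of the level of vkg, their sum would exceed that of Cg25C in both libraries.

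Laminin genes had the highest levels of the matrix members. LanB1, the beta chain gene, had 104 FPKM in Polycomb RNAi and 96.1 FPKM in wild type, and it ranked 1023 and 1119 among all named genes of those libraries. LanA, an alpha chain gene, had 99.96 FPKM in Polycomb RNAi and 81.6 FPKM in wild type. Its ratio of 1.23 and log2 difference of 0.29 were the largest in the upward direction among the 9 members. LanB2, the gamma chain gene, had 69.5 FPKM in Polycomb RNAi and 71.2 FPKM in wild type. The beta chain gene thus stood at 1.496 times the level of the gamma chain gene in Polycomb RNAi and at 1.35 times in wild type, and LanA stood at 1.44 and 1.15 times the level of LanB2. LanB1 was 5.50 times the level of Cg25C in Polycomb RNAi and 5.93 times in wild type. In both libraries the RNA of the laminin gene was thus several times more abundant per length than that of the collagen gene.

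The linkers of the network were at opposite ends of expression. The perlecan gene trol had 25.8 FPKM in Polycomb RNAi and 28.7 FPKM in wild type, a log2 difference of -0.15 that 23.1% of tested genes reached or passed. Ndg, the only nidogen gene of the set, had 0.496 FPKM in Polycomb RNAi and 0.412 FPKM in wild type. It stayed under 1 FPKM in both libraries and was not counted. The level of trol was 52.0 times that of Ndg in Polycomb RNAi and 69.8 times in wild type, a ratio that rests on the low Ndg values.

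The integrin genes included the only member beyond 1.5-fold. The gene mys, which encodes the beta subunit shared by the PS integrins, had 81.9 FPKM in Polycomb RNAi and 76.4 FPKM in wild type. The PS1 alpha subunit gene mew had 49.0 FPKM in Polycomb RNAi and 50.6 FPKM in wild type. The PS2 alpha subunit gene if had 14.5 FPKM in Polycomb RNAi and 25.4 FPKM in wild type, so the wild-type level was 1.75 times the RNAi level. The log2 difference of if was -0.77, and 4.65% of all tested genes lay as low or lower, while 11.1% were as far from 0 in either direction. The level of mew was 3.37 times that of if in Polycomb RNAi and 1.99 times in wild type. Values from whole discs cannot tell fewer cells that express a gene from less RNA per cell.

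**Figure D2:**
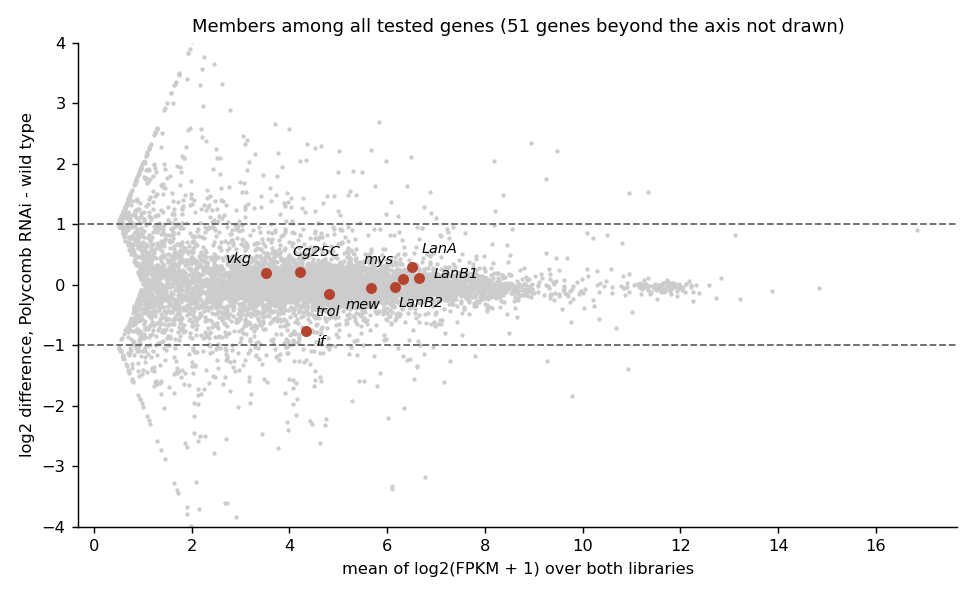
Log2 difference of Polycomb RNAi minus wild type against the mean log2(FPKM + 1) of both libraries, with all tested genes in grey and the 9 tested members in red; dashed lines mark 2-fold, and 51 genes beyond a log2 difference of 4 in either direction are not drawn. Of the members, if lies lowest at -0.77 and LanA highest at 0.29, all inside the dashed lines.

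The 4 other integrin subunit genes each had the larger value in the Polycomb RNAi library. Of these, 3 reached 1 FPKM, and 1 of the 3 was at least 2-fold higher, where 4.41% of all tested genes were. The PS3 alpha subunit gene scb had 26.6 FPKM in Polycomb RNAi and 19.7 FPKM in wild type, a log2 difference of 0.42. Its chromosomal neighbour alphaPS4 had 1.70 FPKM in Polycomb RNAi and 0.19 FPKM in wild type, a log2 difference of 1.18, or 0.37 with a pseudocount of 5. It passed the minimum through the RNAi library alone, and it overlaps trpm (8.89 FPKM in Polycomb RNAi and 7.73 FPKM in wild type), with which reads can be shared without strand information. The gene alphaPS5 had 3.77 FPKM in Polycomb RNAi and 2.62 FPKM in wild type, and the second beta gene, betaInt-nu, stayed under 1 FPKM at 0.322 and 0.0471 FPKM. Of the summed level of the 5 alpha subunit genes, if made up 15.2% in Polycomb RNAi and 25.8% in wild type. The share of scb was 27.9% in Polycomb RNAi and 20.01% in wild type, and that of mew was 51.2% and 51.3%. The alpha subunit genes together stood at 1.17 times the level of mys in Polycomb RNAi and at 1.29 times in wild type.

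**Figure D3:**
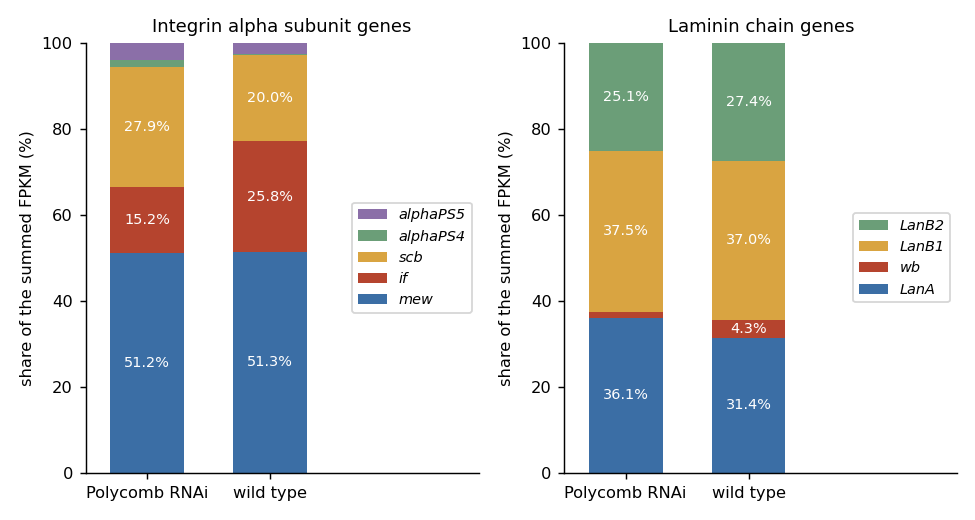
Share of each gene, in percent, in the summed FPKM of 5 integrin alpha subunit genes (left panel) and of 4 laminin chain genes (right panel), with 1 bar per library, Polycomb RNAi before wild type. The share of if is 15.2% in Polycomb RNAi and 25.8% in wild type, and that of wb is 1.26% and 4.26%.

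Basement membrane genes outside the set lay between log2 differences of -1.43 and 1.27, against -0.77 and 0.29 for its members. Of 8 further basement membrane genes, 7 reached 1 FPKM. Of the 7, 1 was at least 2-fold higher and 1 at least 2-fold lower, against 4.41% and 3.20% of all tested genes. The lower one was wb, which encodes the second laminin alpha chain of the fly and a ligand of the PS2 integrin. It had 3.50 FPKM in Polycomb RNAi and 11.1 FPKM in wild type, a log2 difference of -1.43, and 1.56% of tested genes lay as low or lower. With a pseudocount of 5, its difference of -0.92 was inside 2-fold. LanA was 28.6 times the level of wb in Polycomb RNAi and 7.36 times in wild type. Of the summed FPKM of these alpha chain genes, wb made up 3.38% in Polycomb RNAi and 12.0% in wild type. Of the non-coding genes that overlap wb, CR43640 had 0.0391 FPKM in Polycomb RNAi and 0.201 FPKM in wild type, and CR43639 had 0.19 FPKM in Polycomb RNAi and was listed at 0 in wild type.

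The higher gene of that list was Pxn, which encodes peroxidasin, the enzyme that crosslinks collagen IV and is also a haemocyte marker. Pxn had 14.1 FPKM in Polycomb RNAi and 5.26 FPKM in wild type, a log2 difference of 1.27, or 0.89 with a pseudocount of 5. Tig, which encodes tiggrin, another ligand of PS2, had 13.0 FPKM in Polycomb RNAi and 7.68 FPKM in wild type, inside 2-fold at a log2 difference of 0.69. Glt, which encodes the basement membrane protein glutactin, had 39.3 FPKM in Polycomb RNAi and 24.4 FPKM in wild type. The papilin gene Ppn (144 FPKM in Polycomb RNAi and 132 FPKM in wild type) and the multiplexin gene mp (11.2 and 10.5 FPKM) were closer, as was BM-40-SPARC, whose product binds collagen IV (71.0 and 72.8 FPKM). The known PS2 components and ligands thus did not share a direction, with if and wb below wild type and Tig above it.

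Genes that fold, modify and secrete collagen lay within 2-fold. Of 16 listed, 15 were matched and 14 reached 1 FPKM, with none at least 2-fold higher or lower and a median of 0.05. Among all tested genes the shares were 4.41% higher and 3.20% lower. Counts of 0 among 14 are near these shares and are no result about the list. The largest differences were those of lox, a lysyl oxidase gene (1.65 FPKM in Polycomb RNAi and 0.466 FPKM in wild type), and CG7787, now strat, a gene for polarized basement membrane secretion (28.1 and 42.5 FPKM). The prolyl 4-hydroxylase genes differed in sign, with PH4alphaMP at 1.39 FPKM in Polycomb RNAi and 0.614 FPKM in wild type and PH4alphaEFB at 19.8 and 26.6 FPKM. With a pseudocount of 0.1, lox and PH4alphaMP were at least 2-fold higher, but both passed the minimum through the RNAi library alone. Of the matrix remodelling list, 7 of 8 genes reached 1 FPKM, 1 was at least 2-fold higher and none at least 2-fold lower. These counts stand beside the same shares of all tested genes. Timp, which encodes the inhibitor of the matrix metalloproteinases, had 20.02 FPKM in Polycomb RNAi and 5.97 FPKM in wild type, a log2 difference of 1.59. Timp lies inside Syn, which was at 0.114 FPKM in Polycomb RNAi and 0.0954 FPKM in wild type. The metalloproteinase genes were closer, with Mmp1 at 38.8 FPKM in Polycomb RNAi and 32.4 FPKM in wild type and Mmp2 at 14.0 and 14.8 FPKM. Their summed level stood at 2.64 times that of Timp in Polycomb RNAi and at 7.90 times in wild type. The protease genes CG14869, now AdamTS-A, (18.8 and 24.1 FPKM) and tok (59.6 and 75.5 FPKM) were below wild type and inside 2-fold.

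The rows matched to integrin-linked adhesion genes and other matrix receptors lay within 2-fold. All 22 matched genes of the adhesion complex reached 1 FPKM in both libraries and none was at least 2-fold apart. That count is near the shares of 4.41% higher and 3.20% lower among all tested genes. A further row for Src42A, named CG14471, was not among the 22. It was listed at 4.0e-19 FPKM in Polycomb RNAi and 1.14 FPKM in wild type, at least 2-fold lower at -1.10. The row matched to Src42A had 111.3 and 107.1 FPKM. With the deposited values, 4343 of all 8800 tested genes were above 0 and 4457 below it. Of the adhesion genes, 18 were above 0 and 4 below it, with a median of 0.12. With equal sums, 13 of them were above 0 and 9 below, but the median of all tested genes then also moved, to -0.10. With median centring, 18 were above 0 and 4 below. The largest differences were those of the paxillin gene Pax (57.1 FPKM in Polycomb RNAi and 40.4 FPKM in wild type), of ics (64.3 and 49.9 FPKM), of the vinculin gene Vinc (35.5 and 29.1 FPKM) and of the adaptor gene p130CAS (25.1 and 20.8 FPKM). The 5 other matrix receptor genes were all below 0 with the deposited values, with a median of -0.18. With sums made equal without the largest entry of the table, 4 were below 0. The dystroglycan gene Dg had 55.8 FPKM in Polycomb RNAi and 63.6 FPKM in wild type, and the syndecan gene Sdc had 105.9 and 120.1 FPKM. The discoidin domain receptor gene Ddr had 3.50 FPKM in Polycomb RNAi and 4.32 FPKM in wild type, and the glypican gene dally had 89.8 and 94.6 FPKM.

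**Figure D4:**
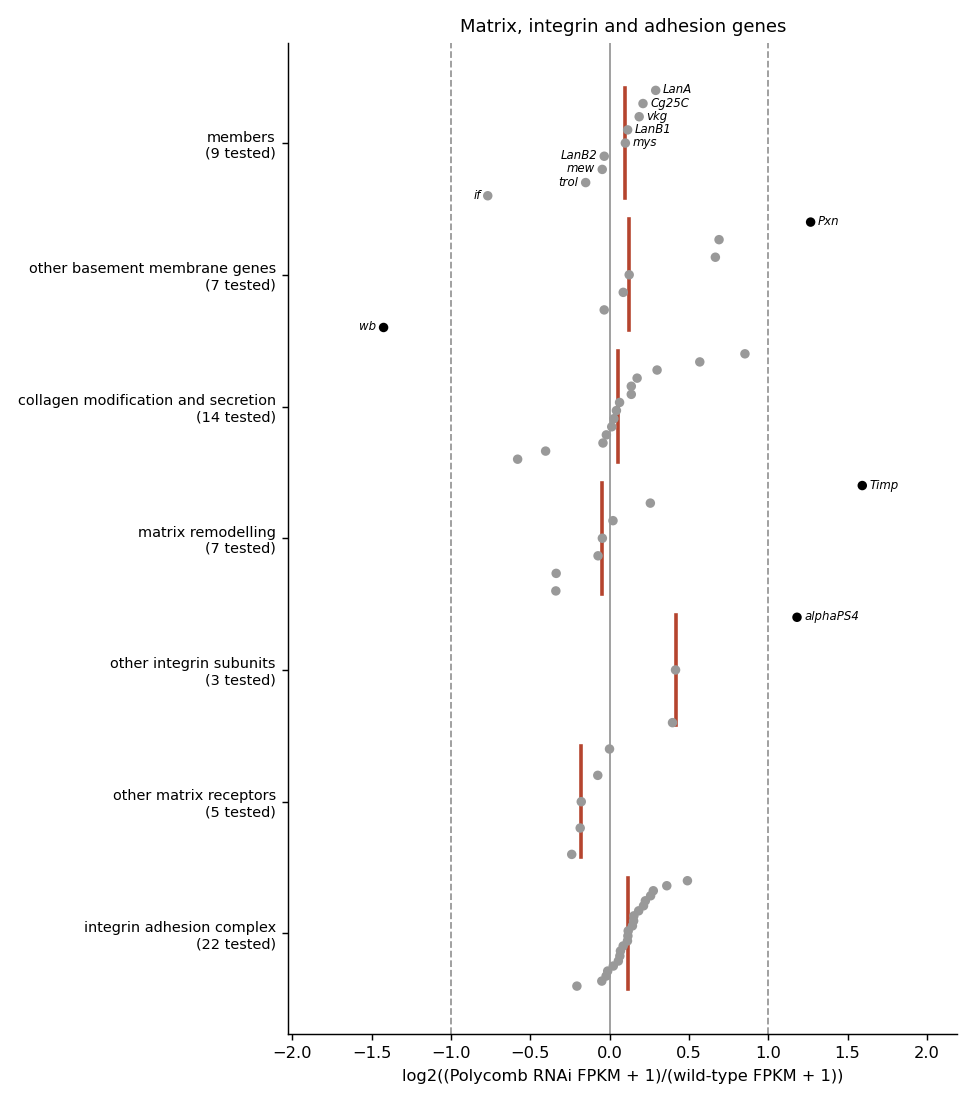
Log2 difference of each tested gene in the set (labelled members) and in 6 lists of matrix, integrin and adhesion genes; black points are at least 2-fold apart, dashed lines mark 2-fold and each red line is the median of its list. Black points are wb at -1.43, Pxn at 1.27, Timp at 1.59 and alphaPS4 at 1.18.

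Markers of the cells that secrete basement membrane proteins had a list median above 0 for haemocytes and below 0 for the fat body. Of 15 haemocyte markers, 13 reached 1 FPKM, with a median of 0.96. Of the 13, 6 were at least 2-fold higher and 1 at least 2-fold lower, against 4.41% and 3.20% of all tested genes. The higher ones were He (24.2 FPKM in Polycomb RNAi and 8.72 FPKM in wild type), Pxn, Sr-CI (4.41 and 1.25 FPKM), eater (8.66 and 3.72 FPKM), Hml (6.68 and 2.76 FPKM) and proPO45, now PPO2 (16.4 and 7.66 FPKM). With equal sums, 3 haemocyte markers were at least 2-fold higher, and with a pseudocount of 5 only He was. The summed level of the list was 185.6 FPKM in Polycomb RNAi and 229.1 FPKM in wild type. Without Nplp2 (29.1 and 136.8 FPKM), the only lower marker, it was 156.5 and 92.3 FPKM. The crystal cell gene lz was at 0.0750 FPKM in Polycomb RNAi and 0.0204 FPKM in wild type, and nimC4 was listed at 0 in wild type. In the same libraries, the summed level of the collagen IV genes was 1.16 times, and that of the laminin genes of the set 1.10 times, that of wild type.

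Of 12 fat body markers, 11 reached 1 FPKM. None of the 11 was at least 2-fold higher, against 4.41% of all tested genes. In the other direction, 1 was at least 2-fold lower, against 3.20%. It was Lsp1gamma (465.4 FPKM in Polycomb RNAi and 1675 FPKM in wild type). The median was -0.56, and the summed level was 2810 FPKM in Polycomb RNAi and 4388 FPKM in wild type, with none of the markers at 0 in either library. The markers Fbp1 (801.1 FPKM in Polycomb RNAi and 762.4 FPKM in wild type) and Fbp2 (343.0 and 305.3 FPKM) were above 0, and with equal sums Fbp2 alone was. The differences of both collagen IV genes lay between the medians of the haemocyte and fat body lists, as did those of most tested genes. Of all tested genes, 6.75% lay as low as the fat body median or lower, and 4.68% as high as the haemocyte median or higher. The part of haemocytes and fat body in the levels of the basement membrane genes was not tested.

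Of muscle and myoblast markers, from cells that rely on integrin adhesion, 3 of 17 tested genes were at least 2-fold higher. Of all tested genes, 4.41% were. The list median was 0.40. The 3 were the contractile genes wupA (1.34), TpnC73F (1.52) and Prm (1.20). The myoblast genes twi, Mef2, htl and stumps lay from -0.03 to 0.04, Him at -0.27 and zfh1 at 0.34. The summed level of the whole list was 329.1 FPKM in Polycomb RNAi and 215.9 FPKM in wild type. Tracheal markers are from another tissue lined by a basement membrane and attached to the disc. Of the 8, 2 were at least 2-fold lower, against 3.20% of all tested genes. Their median was -0.42, and their summed levels were 503.8 FPKM in Polycomb RNAi and 845.8 FPKM in wild type. The lower ones were obst-A (20.2 FPKM in Polycomb RNAi and 220.0 FPKM in wild type) and trh (9.65 and 20.7 FPKM). Much of the gap between the sums came from obst-A. Of 7 salivary gland and gut markers, 5 were at least 2-fold higher and 1 at least 2-fold lower, against 4.41% and 3.20% of all tested genes. The summed levels of these markers were 146.7 FPKM in Polycomb RNAi and 48.8 FPKM in wild type. With a pseudocount of 5, 3 of these were higher and none lower, and 1 tracheal marker was lower. The 3 tested markers of neurons and glia lay within 2-fold, but with a pseudocount of 0.1 Rbp9 and moody were at least 2-fold higher. Rbp9 had 1.01 FPKM in Polycomb RNAi and 0.352 FPKM in wild type, and it passed the minimum through the RNAi library alone. For moody the levels were 6.13 and 2.71 FPKM. The part of these cells in the values of if, wb and Timp was not tested.

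The labelled tissue was visible in both libraries. All 13 markers of the disc epithelium reached 1 FPKM in both, from 18.3 to 169 FPKM in Polycomb RNAi and from 21.5 to 144 FPKM in wild type. They had a median difference of -0.22, with 10 below 0 and 3 above it (tsh at 0.32, hth at 0.29 and wg at 0.25). Of the 13, 2 were at least 2-fold lower, against 3.20% of all tested genes. They were the wing selector vg (24.0 FPKM in Polycomb RNAi and 54.2 FPKM in wild type) and the dorsal selector ap (71.3 and 143.9 FPKM). The call of ap was lost with a pseudocount of 5 (-0.96) and with sums made equal without the largest entry (-0.99). In the same libraries the difference was -0.05 for mew, a gene of the dorsal surface, and -0.77 for if, a gene of the ventral surface.

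**Figure D5:**
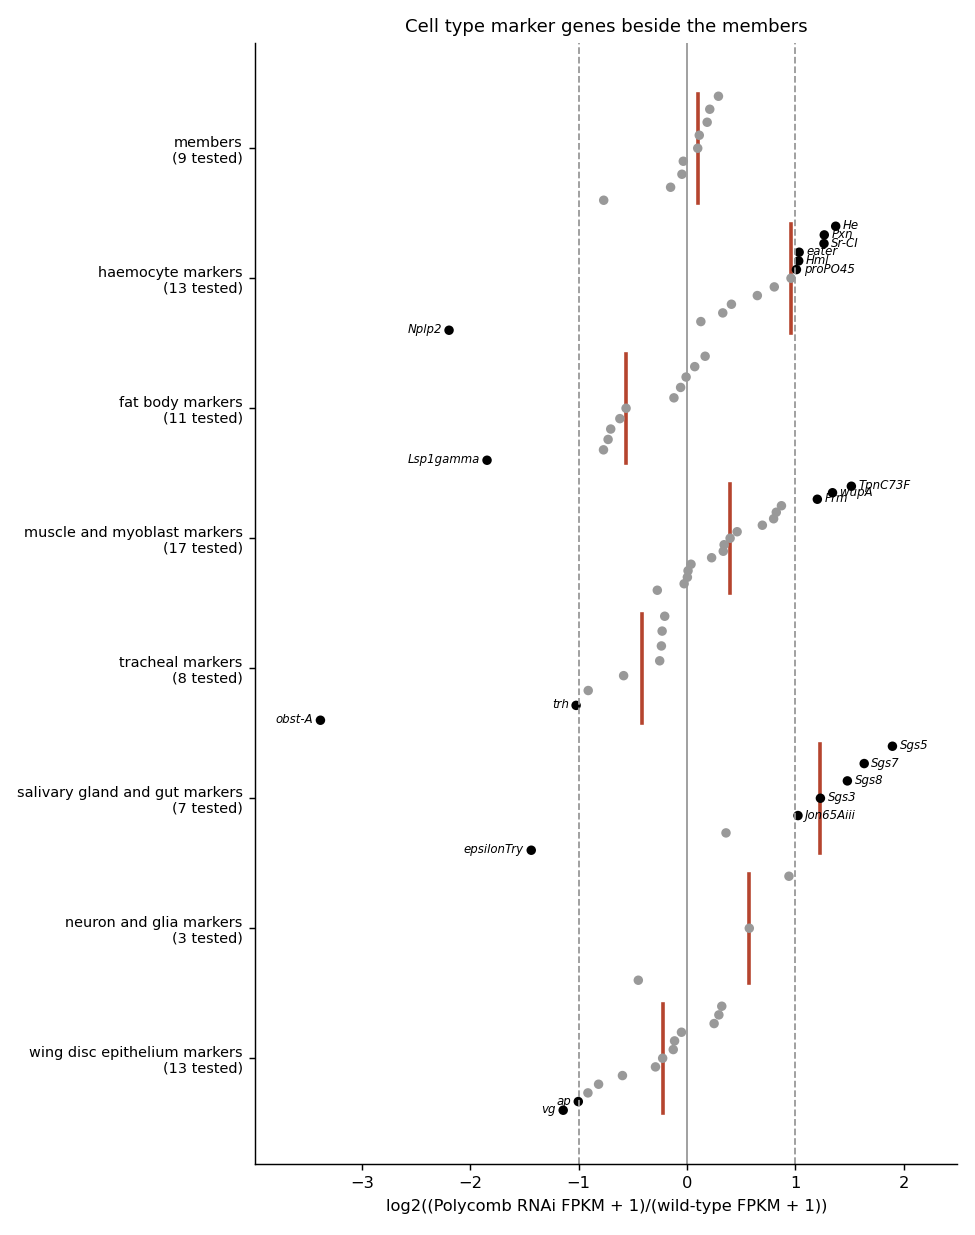
Log2 difference of each tested gene in the set (top row) and in 7 lists of cell type markers; black points are at least 2-fold apart, dashed lines mark 2-fold and each red line is the median of its list. The median is 0.10 for the set, 0.96 for haemocyte and -0.56 for fat body markers.

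The members lie on several chromosomes. The integrin genes and trol are on the X chromosome, LanA and LanB2 on 3L, Cg25C, vkg and LanB1 on 2L and Ndg on 2R, by the Release 6 gene table. Tested X-linked genes had a median difference of 0.0040 (n = 1416) and autosomal genes one of -0.0044 (n = 7185). The CyO balancer named in the wild-type genotype is a rearranged second chromosome, and 4 of the members (Cg25C, vkg, LanB1 and Ndg) are genes of that chromosome. So are others named above, among them wb, alphaPS4, scb, Tig, Glt, He, Sr-CI, proPO45, vg and ap. Tested genes of that chromosome had a median of -0.0011 (n = 3314). With 1 library per genotype, the RNAi and the balancer cannot be told apart for any gene, on that chromosome or another. Of 18 protein-coding neighbours of the members that are not members themselves, 11 reached 1 FPKM. None of the 11 was at least 2-fold higher and 1 was at least 2-fold lower. Among all tested genes the shares were 4.41% and 3.20%, and so small a count is no result about the neighbours. The lower one was the row pncr008:3L next to LanA, listed at 0 in Polycomb RNAi and at 2.06 FPKM in wild type. It passed the minimum through the wild-type library alone. On either side of if, Twdlalpha had 0.301 FPKM in Polycomb RNAi and 0.488 FPKM in wild type, and mRpL22 had 48.3 and 51.3 FPKM.

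Over 2 libraries many genes share the pattern of any member. The genes closest to Cg25C in both log2 levels were dgt5 (19.3 FPKM in Polycomb RNAi and 16.1 FPKM in wild type), CG34126 and CG4080. Those closest to LanB1 were Srp54 (103.3 and 98.6 FPKM), tacc and Srp19, and those closest to mys were Su(var)2-10 (82.0 and 77.2 FPKM), CR44114 and ex. Within a distance of 0.1 on this scale lay 54 genes for Cg25C, 34 for LanB1 and 57 for mys.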

How the data were processed

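Per the labels, RNA was sequenced from wing discs with 1 unstranded library per genotype. The authors deposited FPKM values per named gene. Tools listed in the submitters' processing notes, without roles, are TopHat2 2.0.11 and Cufflinks, Bowtie 1.0.0, CASAVA 1.4 and SICER, with the build dm3; annotation and filters are not stated. FPKM is scaled to the library's mapped fragments, so abundant transcripts shift other values: CG41421 took 16.4% of the summed FPKM in Polycomb RNAi and 9.41% in wild type. A row named by a dash (0.206% and 0.127%) was left out. Low values (0.005 to 0.3 FPKM in each library, 1159 genes) had 0.96 as their commonest ratio of Polycomb RNAi to wild type, and 19.8% of these genes fell within 5% of that ratio, as whole reads would give; absolute depth is unknown. The H4K20me1 peaks, on dm3, were not used, since no annotation of that build was used here.

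Differences, the minimum of 1 FPKM and the 2-fold rule were computed with Python 3.11.15, pandas 2.3.3 and numpy 2.4.6. The code for the calls was checked on simulated data with large planted differences in well-expressed genes. That check cannot tell how reliable the calls are in these libraries. No test across samples was possible. Names were matched to the RefSeq gene table of Release 6 (14965 of 15627, 95.8%); 3 of 143 list entries, Sec24AB, Rap1 and n-syb, were left out because RefSeq gives the table's name to several genes. The members, the 13 lists and the rules were chosen with earlier results of these data known. The rule for named genes takes all members, list genes at least 2-fold apart, up to 4 further genes per matrix list with the largest differences, 3 nearest genes, and neighbours. Named after their values were seen were veg, Fbp1, Fbp2, Rbp9, moody, betaInt-nu, BM-40-SPARC, lz, nimC4, Nplp2, trpm, Syn, CR43639 and CR43640. So were twi, Mef2, htl, stumps, Him, zfh1, tsh, hth, wg, Src42A and CG14471. Marker genes at least 2-fold apart were named in part. Alternatives were the pseudocount (0.1 and 5), the minimum (none and 5 FPKM), scaling to the same sum with and without the largest entry, median centring and a 1.5-fold rule.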

Additional observations from a re-analysis of the deposited data

How the results depend on the processing

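None of the members was at least 2-fold higher or lower under any of the 7 other settings that kept the 2-fold rule. With the 1.5-fold rule, 1 of 9 was lower, which was if. Over these settings the log2 difference of if ran from -0.87 to -0.64, that of Cg25C from 0.11 to 0.22, that of vkg from 0.09 to 0.20 and that of LanA from 0.19 to 0.30. The difference of mys lay between -0.0036 and 0.11 and was below 0 with equal sums only. Scaling to the same sum moved the median of all tested genes to -0.10, and the median of the 9 members, 0.10 with the deposited values, to -0.0036. With a pseudocount of 5, wb (-0.92), Pxn (0.89) and alphaPS4 (0.37) were inside 2-fold, while Timp (1.19) was not. The same pseudocount reduced the higher haemocyte markers from 6 to 1 and the higher salivary gland and gut markers from 5 to 3. Over all tested genes, the numbers at least 2-fold higher and lower were 388 and 282, against 134 and 107 with a pseudocount of 5, 570 and 415 with one of 0.1, and 189 and 186 with a minimum of 5 FPKM. Leaving Nplp2 out of the haemocyte list, a choice made after seeing the data, left 6 of 12 higher and 0 lower. No paired analysis was possible because each genotype had 1 library and no test was run. Depth is unknown, so values under 1 FPKM, such as those of Ndg, carry an unknown counting error.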
